A study of Zea mays with 24 samples.

Results

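The transcripts described here are the maize pollen-specific transcripts outside the pectin, glucan and cellulose enzymes, the cytoskeleton, the kinases and phosphatases, the calcium and GTP signalling proteins and the vesicle traffic proteins. They were taken from the study's list of pollen-specific transcripts by the absence of those words from the product name, and 285 of the 346 listed probes remained, of 21939 probes on the array. Of the 61 probes left out, 58 carried one of the words and 3 were removed by name. The study had put a probe on its list when the probe was detected in mature pollen of all 3 lines and in neither anther stage nor juvenile leaf. The members were thus chosen by those detection calls, and pollen specificity is therefore a property of the list and not a result. The level of a transcript in one tissue against another cannot be read from these data, since only ratios between lines were analysed here and not the signal of each channel.

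A mature pollen grain is a small haploid organism that leaves the anther loaded with stored mRNA and protein, ready to germinate on the silk and to grow a tube through the style. The tube grows at its tip, which consumes wall material, membrane, sugar and ions at a high rate. Grass pollen is known for a small set of very abundant secreted proteins, among them the allergens of group 1, which are beta-expansins and loosen the walls of grass cells, and those of group 3, which resemble the last domain of an expansin. Pollen-specific lists also hold many transcripts of no known function.

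The lines set against W23 were A619, an inbred derivative, and ND101/W23, an F1 hybrid made by placing W23 pollen on ND101. The inbred W23 carried the bz2 anthocyanin mutation. The plants were grown in the field, and 4 tissues were collected: 1 mm anthers, 1.5 mm anthers, mature pollen and the juvenile leaf, with 3 biological replicates of each line and anthers and pollen pooled from the florets of 1 tassel. RNA of 2 lines was hybridized to 1 array in 2 colours with 60-base probes, which gave 24 arrays, with 3 arrays for every line and tissue. Arrays of A619 and of ND101/W23 with the same replicate number shared a W23 sample in the study's design, so that the comparisons of both lines with W23 are not independent of each other. Each value is the log2 of the line over W23, and a value of 1 is a 2-fold higher signal in the line. The ratios compare bulk samples, in which fewer cells of a type and less RNA per cell cannot be told apart.

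Of the 285 members, 275 had a value in the deposited table, 263 of them on all 24 arrays, and 10 had none. The 10 without a value include an amino acid transporter-like transcript and 1 transcript with no product name. A product name was given for 199 members and none for 86. By their product names the members were sorted into 11 groups, of which the largest were 109 members with similarity to proteins of other or unknown function and the 86 without a name. There were 17 pollen allergens, expansins and other wall proteins, 17 sugar and other metabolic enzymes, 15 proteins of transcription, chromatin and RNA, 13 transporters and channels, 8 lipid and phosphoinositide proteins and 6 each of proteases with their inhibitors, proteins named for pollen, and desiccation, stress and defence proteins. The remaining 2 carried the Cin1 repeat, an abundant repeated sequence of the maize genome. A probe was in reverse orientation, with its start after its end on the assembled transcript, for 66 members (59 with a value) and in forward orientation for 219 (216 with a value). A reverse probe may bind RNA of the strand opposite to the assembled transcript, which was not tested. The probes matched their transcript without a mismatch for 268 members, with 1 mismatch for 13 and with 2 for 4. A gene record was found for 4 members, none with a product name, and 2 of these 4 matched the same record, so that they may report on 1 gene.

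In mature pollen, the tissue for which these transcripts were listed, most of them lay close to equal signal in the 3 lines. The median ratio of the 275 members was -0.05 in A619 (quartiles -0.26 to 0.21) and 0.08 in ND101/W23 (quartiles -0.14 to 0.37), beside 0.01 and -0.01 over all probes. Single members reached from -2.98 to 3.04 in A619 and from -2.77 to 1.90 in ND101/W23. The mean ratio was past 2-fold for 26 members in A619 (9.45%, 11 higher and 15 lower) and for 29 in ND101/W23 (10.5%, 16 higher and 13 lower), beside 3.10% and 3.13% of all probes. The members were chosen as detected in pollen, which was not asked of all probes, so that these shares do not compare like with like, and the same holds for the spread of the replicate arrays. The median SD over 3 pollen arrays was 0.45 in A619 and 0.41 in ND101/W23 for the members, against 0.28 and 0.25 for all probes. The rule that chose the members required a signal in pollen of every line, which leaves out a transcript that one of the lines lacks.

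A probe was called when its Benjamini-Hochberg adjusted p over all probes (limma) was under 0.05 and its 3 ratios had the same sign. For A619 minus ND101/W23 the sign rule was applied to the 3 same-numbered differences. The p of that difference took no account of the W23 samples that same-numbered arrays share. In A619 pollen 8 members were called (2.91% of 275), 5 higher and 3 lower, beside 1.53% of all probes (0.633% higher and 0.899% lower). In ND101/W23 pollen 3 members were called (1.09%), 1 higher and 2 lower, beside 0.937% of all probes (0.557% higher and 0.380% lower). At an unadjusted p under 0.05 there were 51 and 57 members. For A619 minus ND101/W23 in pollen 0 members were called by limma, as were 0% of all probes. There 31 members had an unadjusted p under 0.05 and the smallest adjusted p was 0.0704. Rank Products, the test of the study, called 12 members there, and limma with the replicate number as a block called 0. Shares of all probes were not counted for Rank Products or for an unadjusted p. Those member counts therefore have no background to be set against. The counts moved when 1 replicate was left out, which also leaves only 2 arrays a line in the fit. Without replicate 1 or without replicate 3, 0 members were called in either line. Without replicate 2 there were 10 in A619 and 6 in ND101/W23. Shares of all probes were not counted for these fits either. The mean ratios of A619 and ND101/W23 lay more than 2-fold apart for 32 members (11.6%, 11 higher and 21 lower in A619), beside 3.76% of all probes.

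The highest called ratio in pollen was that of TC274815, weakly similar to NOP58 of yeast, a nucleolar protein that takes part in the maturation of ribosomal RNA. Its log2 ratios were 3.84, 2.26 and 3.03 in A619 against 1.55, -0.67 and 0.68 in ND101/W23. All A619 arrays lay above all ND101/W23 arrays, but the difference between the lines was not called (limma). The A619 mean of 3.04 had an SE of 0.43 and an adjusted p of 0.0243 (limma), while the ND101/W23 mean of 0.52 had an adjusted p of 0.819. The matched stretch is short, 8% of the yeast protein, and the name is no evidence of function in maize.

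The lowest called member was AW928278, which has no product name. In A619 its ratios were -2.47, -4.55 and -1.93, a mean of -2.98 (SE 0.46, adjusted p = 0.0301, limma), and in ND101/W23 they were -0.64, -0.93 and -1.51. All 6 arrays were below 0, and the A619 arrays lay below those of ND101/W23 without overlap. The difference between the lines was not called. TC255219, also without a name, was higher on all 6 arrays, at 1.68, 3.32 and 2.08 in A619 against 1.65, 1.59 and 1.24 in ND101/W23. The A619 mean of 2.36 was called (SE 0.29, adjusted p = 0.0138) and the ND101/W23 mean of 1.49 was not (adjusted p = 0.0833). Here too the difference between the lines was not called. TC268360, the last unnamed transcript called in A619, read 2.09, 1.12 and 1.65 there and 1.58, 0.59 and 0.74 in ND101/W23. Its A619 mean was 1.62 (SE 0.25, adjusted p = 0.0295), its ND101/W23 mean of 0.97 had an adjusted p of 0.166, and the arrays of both lines overlapped.

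TC272629 was the only member called in pollen of both lines. Its product name is that of DAN4, a mannoprotein of the yeast cell wall, over 3% of that protein. The ratios were -1.27, -1.32 and -0.94 in A619 against -1.08, -1.12 and -0.86 in ND101/W23, with means of -1.18 (SE 0.13, adjusted p = 0.00995, limma) and -1.02 (SE 0.13, adjusted p = 0.0246). The arrays of both lines overlapped, about 2-fold below W23, and the same-numbered arrays share W23 samples.

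Another 3 A619 calls carried product names that say little of function. TC261524, weakly similar to an open reading frame named ORF1, read -2.08, -1.95 and -1.23 in A619 against 0.18, 0.55 and -0.25 in ND101/W23. Only the A619 arrays were low, with a mean of -1.75 (SE 0.22, adjusted p = 0.0138, limma), and the difference between the lines of -1.91 had an adjusted p of 0.125. TC266366, similar to a bacterial protein Bsr0022, read 1.84, 0.97 and 1.23 in A619 (mean 1.35, SE 0.21, adjusted p = 0.0312) and 0.82, 0.09 and 0.34 in ND101/W23. TC260978, similar to the Arabidopsis protein T1N24.14, read 1.20, 0.51 and 1.40 in A619 (mean 1.04, SE 0.18, adjusted p = 0.0480, and 0.0632 with the replicate number as a block, which ends the call) and 0.44, 0.61 and 0.38 in ND101/W23. All arrays of these last transcripts were above 0 in both lines, and for TC260978 the lines overlapped.

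In ND101/W23 alone, TC268098 and TC264374 were called. TC268098 has no product name and read 1.72, 1.58 and 1.65 in ND101/W23 (mean 1.65, SE 0.20, adjusted p = 0.0163, limma), where A619 gave -0.12, -1.10 and -0.22. No A619 array reached 0 and no ND101/W23 array fell under 1.58, and the difference of A619 minus ND101/W23 was -2.13 (SE 0.28) with an adjusted p of 0.0704. TC264374, similar to the Drosophila protein RE13473p, had a probe in reverse orientation and read -1.26, -1.18 and -0.93 in ND101/W23 (mean -1.12, SE 0.15, adjusted p = 0.0256), against -0.05, 0.17 and 0.51 in A619. The A619 arrays lay above those of ND101/W23, by 1.33 on average, with an adjusted p of 0.121.

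**Figure D1:**
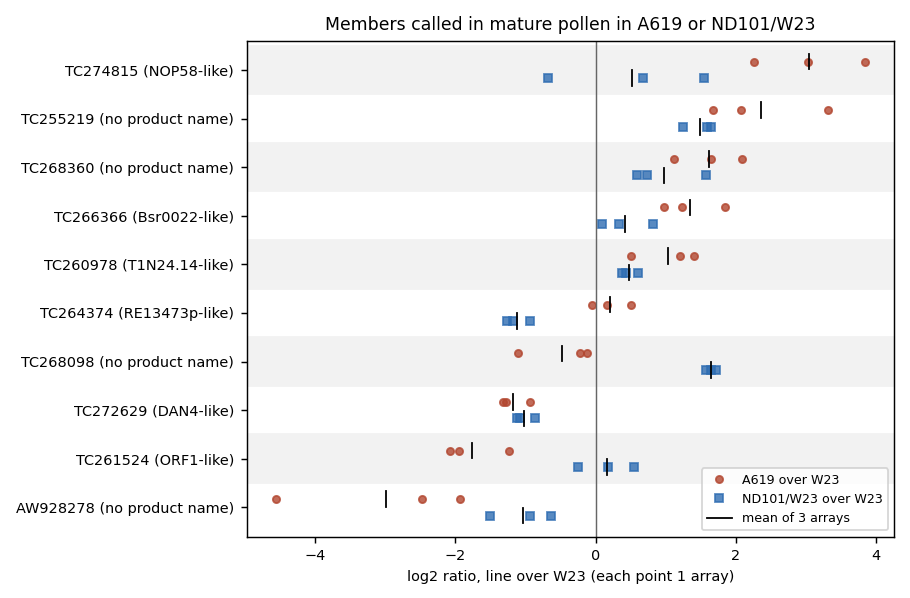
Log2 ratio of the line over W23 (horizontal axis) in mature pollen for the 10 members called in A619 or ND101/W23, with 1 point for each array and a bar at the mean of 3 arrays. TC272629 lies below 0 in both lines at the same level, while TC274815 and TC261524 stand away from 0 in A619 and TC268098 in ND101/W23.

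Several larger mean ratios in pollen were not called because the replicate arrays disagreed. TC249885, a cyclophilin-like transcript (cyclophilins assist protein folding), read 3.34, -1.02 and 2.70 in A619 (mean 1.67, SE 0.85, adjusted p = 0.506, limma) and 2.67, 0.19 and 2.61 in ND101/W23 (mean 1.82, adjusted p = 0.515). Replicate 2 was low in both lines, and the arrays of that number share a W23 sample. TC269704, the maize pollen-specific cDNA clone 4H3, had the same form, with 2.68, 0.69 and 2.01 in A619 (mean 1.79, adjusted p = 0.225) and 2.72, -0.13 and 1.55 in ND101/W23 (mean 1.38, adjusted p = 0.426). TC278879, similar to ornithine carbamoyltransferase of arginine synthesis, read 2.61, -0.82 and 2.43 in A619 (mean 1.41, adjusted p = 0.487) and 1.70, -0.52 and 0.23 in ND101/W23. Replicate 2 was again the lowest array of each line.

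Among the low ratios that were not called, AW424708, similar to the Arabidopsis protein F16A14.19, read -3.91, -0.76 and -2.97 in A619 (mean -2.55, adjusted p = 0.0823, limma) against -0.63, 0.43 and -0.29 in ND101/W23. TC279186 read -1.85, -3.36 and -0.84 in A619 (mean -2.02, adjusted p = 0.0882) and -1.28, -0.23 and -0.89 in ND101/W23. All arrays of TC279186 in pollen were below 0. TC274033, weakly similar to the nematode protein GRL-23, also lay below 0 on all 6 arrays. It read -1.03, -2.89 and -1.26 in A619 (mean -1.73, adjusted p = 0.0625) and -1.25, -1.12 and -1.49 in ND101/W23 (mean -1.29, adjusted p = 0.178). Its SD was 1.01 in A619 and 0.19 in ND101/W23, and the shared spread enters both p. TC253039, which matches At3g06260 of Arabidopsis, gave even values of -1.24, -0.95 and -1.07 in A619 and scattered ones of -0.51, -5.15 and 0.52 in ND101/W23 (mean -1.71, adjusted p = 0.626). A single array set the ND101/W23 mean.

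The 17 allergens, expansins and other wall proteins had a median ratio in pollen of -0.01 in A619 and 0.26 in ND101/W23, and TC272629 was the only one called in either line. The 4 group 3 allergen transcripts did not move as a block. TC258678 read 0.53, 1.75 and 0.53 in A619 (mean 0.94, adjusted p = 0.199, limma) and 0.52, 0.88 and 0.05 in ND101/W23, and TC258697 read -0.13, -0.09 and 0.72 in A619 against 0.33, -0.06 and 0.53 in ND101/W23. TC258625 read -1.17, -0.41 and -0.07 in A619 (mean -0.55) and -0.33, 0.67 and 0.48 in ND101/W23 (mean 0.27). TC258678 was thus above 0 on all 6 arrays, TC258625 below 0 on every A619 array, and TC258697 on either side of 0. TC259975, whose probe has 2 mismatches to its transcript, was the lowest, at -2.40, -1.60 and -0.99 in A619 (mean -1.66, SE 0.47, adjusted p = 0.189) and -1.84, 0.64 and 0.25 in ND101/W23 (mean -0.32, adjusted p = 0.935). Probes for members of one allergen family may also bind near-identical copies, which was not tested.

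The group 1 allergen TC259386 and the beta-expansin TC259383, both of the wall-loosening expansin family, had their highest A619 ratio in pollen on replicate 2. TC259386 read 0.28, 1.80 and 0.14 in A619 (mean 0.74, adjusted p = 0.468, limma) and 0.02, 0.91 and -0.21 in ND101/W23. TC259383, with a probe in reverse orientation, read -0.07, 0.85 and 0.50 in A619 against 0.39, 0.00 and 0.39 in ND101/W23. The largest difference between the lines in this group was that of TC260229, similar to the timothy grass pollen allergen Phl p 11. It read 0.21, 0.23 and 0.72 in A619 (mean 0.39, adjusted p = 0.928) and -1.17, -1.69 and -5.45 in ND101/W23 (mean -2.77, SE 0.73, adjusted p = 0.185). Every ND101/W23 array lay below every A619 array, and the difference of 3.16 had an adjusted p of 0.487, with replicate 3 far below the other ND101/W23 arrays.

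The 2 transcripts similar to gp1, a hydroxyproline-rich wall protein of the alga Chlamydomonas, differed from each other. TC260710 read -0.61, -1.45 and 0.31 in A619 (mean -0.58, adjusted p = 0.521, limma) and 1.00, 1.61 and 1.18 in ND101/W23 (mean 1.26, adjusted p = 0.151), while TC273787 read -0.54, 0.76 and 0.08 in A619 against -0.07, 0.52 and 0.49 in ND101/W23. The arrays of both lines did not overlap for TC260710 and did for TC273787. TC266523, similar to a xyloglucan endotransglucosylase/hydrolase, an enzyme that cuts and rejoins wall xyloglucan, was below 0 on all 6 arrays. Its ratios were -1.32, -0.95 and -0.42 in A619 (mean -0.90, adjusted p = 0.155) and -0.68, -1.31 and -1.66 in ND101/W23 (mean -1.22, adjusted p = 0.0773). The extensin-like TC262344 read -0.34, 1.41 and -0.36 in A619 against -0.14, 0.88 and 0.32 in ND101/W23.

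**Figure D2:**
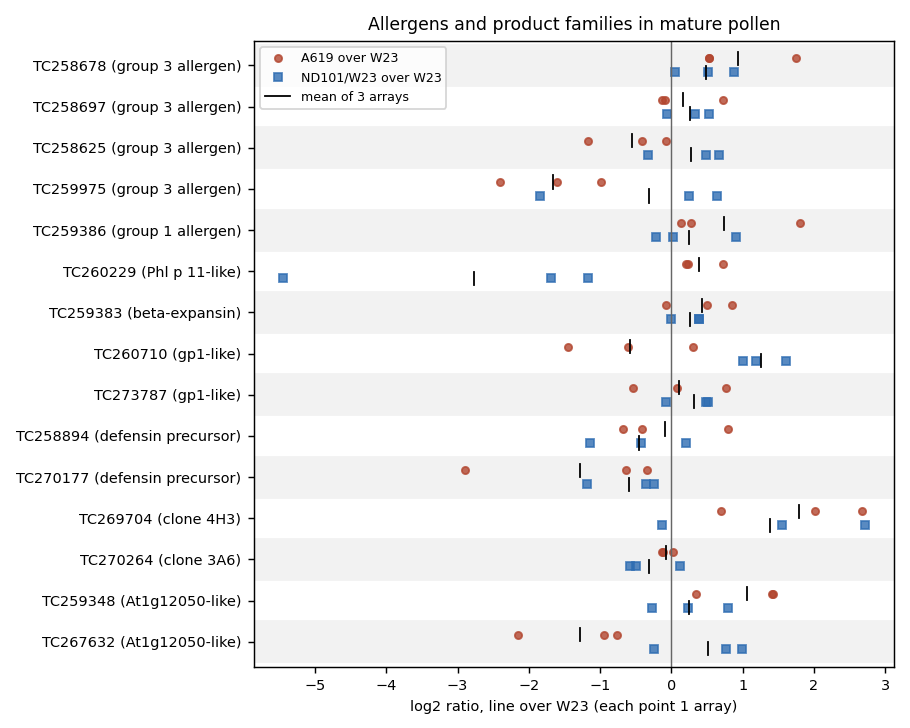
Log2 ratio of the line over W23 (horizontal axis) in mature pollen for allergens, beta-expansin TC259383 and selected product families with more than 1 member. There is 1 point for each array and a bar at the mean of 3 arrays. The 4 group 3 allergens spread to both sides of 0, and TC260229 has 1 ND101/W23 array at -5.45.

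The 6 proteins named for pollen had medians of -0.05 in A619 and 0.11 in ND101/W23 and no call. Beside clone 4H3, they include the maize clone 3A6 (TC270264), at 0.02, -0.13 and -0.12 in A619 against -0.58, -0.49 and 0.12 in ND101/W23. A transcript similar to PLIM-2, a pollen LIM domain protein of a family that binds actin filaments, read 0.63, 0.97 and 0.33 in A619 against 0.79, 1.28 and -0.13 in ND101/W23. The A619 arrays of the PLIM-2-like transcript were all above 0, and its ND101/W23 arrays lay on either side. The 6 proteases and protease inhibitors had medians of -0.04 and 0.12, and the 13 transporters and channels (12 with a value) had medians of -0.10 and 0.13, again with no call. The lowest transporter in A619 pollen was similar to an iron-phytosiderophore transporter, at -1.13, -0.93 and -1.13 in A619 against -0.09, 0.87 and -0.63 in ND101/W23, where the A619 mean of -1.06 had an adjusted p of 0.126 (limma). In ND101/W23 pollen it was the sulfate transporter-like TC275189, which read -1.54, -1.32 and -0.69 (mean -1.18, adjusted p = 0.122) against 0.37, -0.92 and -0.01 in A619.

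Of the 15 proteins of transcription, chromatin and RNA, TC274815 was called in A619 pollen and none was called in ND101/W23 pollen, and the medians were -0.01 and -0.03. The 8 lipid and phosphoinositide proteins had medians of -0.13 and -0.05. Among them a transcript similar to SEC14, a carrier of phosphatidylinositol in yeast, varied widely, at -2.49, 1.07 and 0.55 in A619 against 0.15, 2.47 and 1.21 in ND101/W23 (mean 1.28, adjusted p = 0.628, limma). The 17 metabolic enzymes (16 with a value) had medians of 0.07 and -0.02. UDP-glucose pyrophosphorylase (BQ048092), which makes the sugar nucleotide used for wall and sucrose synthesis, read -0.22, 1.67 and -0.10 in A619 against 1.55, 2.11 and 0.53 in ND101/W23 (mean 1.40, adjusted p = 0.254). Replicate 2 was the highest array of each line for both transcripts.

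The 6 desiccation, stress and defence proteins had medians of -0.06 in A619 and 0.13 in ND101/W23 and no call. Their defensin precursors, small cysteine-rich secreted proteins, read -0.68, 0.80 and -0.41 (TC258894) and -0.63, -2.89 and -0.34 (TC270177) in A619. In ND101/W23 they read -1.14, 0.20 and -0.43 (TC258894) and -0.36, -1.18 and -0.24 (TC270177). TC270177 was below 0 on all 6 arrays and TC258894 on 4 of 6. The Cin1 transcripts differed, since TC265783 was below 0 on all 6 arrays, at -1.20, -2.04 and -0.67 in A619 against -0.40, -0.20 and -0.45 in ND101/W23, and TC270285 read 0.07, 0.20 and -0.67 in A619 against 0.72, 0.04 and 0.01 in ND101/W23.

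Other pairs that share a product name did not all split in this manner. The At1g12050-like transcripts went apart in A619 pollen, TC259348 at 1.41, 0.35 and 1.43 (mean 1.06, adjusted p = 0.150, limma) and TC267632 at -2.15, -0.77 and -0.94 (mean -1.29, adjusted p = 0.141). In ND101/W23 they read -0.27, 0.23 and 0.79 (TC259348) and -0.24, 0.99 and 0.77 (TC267632). The second At3g06260-like transcript, TC264750, read -1.12, -0.03 and 0.08 in A619 against -0.08, 0.56 and 0.67 in ND101/W23. The remaining transcripts grouped by a shared label had pollen means between -0.20 and 0.40 in A619 and between -0.63 and 0.64 in ND101/W23. These were 7 rice or Arabidopsis matches, among them TC273287 and TC273036, and none was called in pollen. Some share only a database label or the name expressed protein, and whether they form families was not tested.

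The unnamed transcripts gave 3 of the 8 A619 calls and 1 of the 3 ND101/W23 calls in pollen, over 85 members with a value and medians of -0.09 and 0.14. The transcripts with other similarity gave 3 calls in A619 and 1 in ND101/W23, over 102 members with a value and medians of -0.03 and 0.11. Of the members with a value, 216 had forward and 59 reverse probes. All 8 A619 calls came from forward probes, while in ND101/W23 there were 2 forward and 1 reverse. Orientation was not read over all probes, so that these counts and those that follow have no background. Whether orientation had a part was not tested. The mean ratio in A619 pollen was past 2-fold for 25 of 216 forward probes and 1 of 59 reverse probes, and in ND101/W23 for 27 and 2. The median was -0.05 in A619 for each orientation, and in ND101/W23 it was 0.13 for forward probes and -0.00 for reverse ones.

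**Figure D3:**
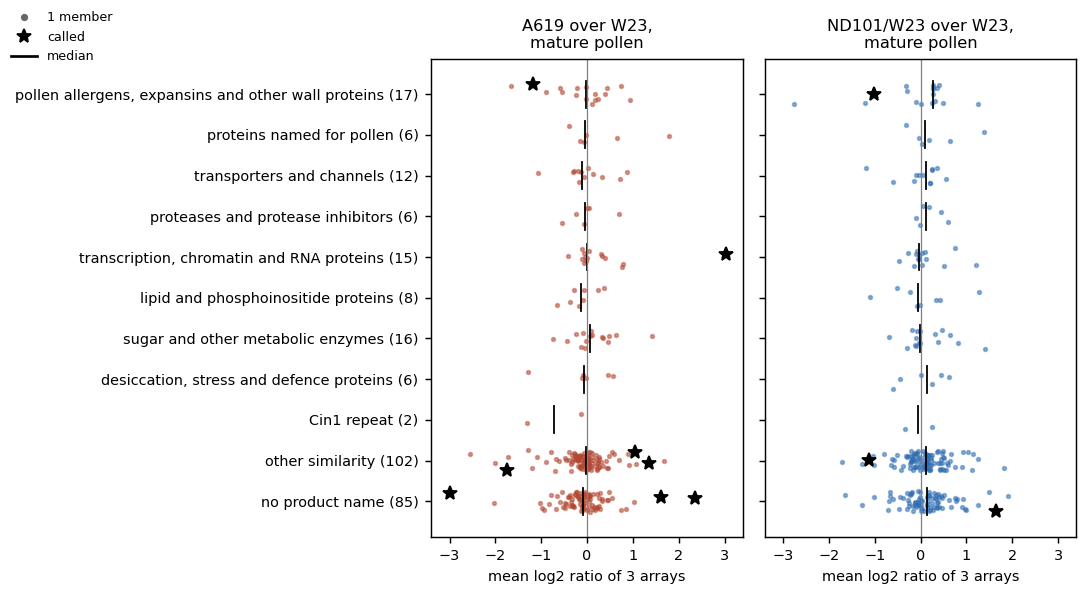
Mean log2 ratio over 3 arrays (horizontal axis) in mature pollen of each member by product group (rows, with the number of members with a value), for A619 over W23 on the left and ND101/W23 over W23 on the right. Bars mark group medians and stars the 8 and 3 called members, and most groups centre near 0 in both lines.

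Outside pollen the study did not count these probes as detected, but the deposited table still gives their ratios. A ratio there comes from spots that were not called present in the tissue. The members were chosen as not detected there, which was not asked of all probes. Shares of members and of all probes outside pollen therefore do not compare like with like, here or below. In 1 mm anthers 3 members were called in A619, all higher (1.09%), beside 4.14% of all probes (2.10% higher). In ND101/W23 2 were called (0.727%), both lower and unnamed, beside 7.05% (4.58% lower). In 1.5 mm anthers 25 were called in A619, 18 higher and 7 lower (9.09%), beside 20.3% of all probes (8.65% higher and 11.6% lower). In ND101/W23 5 were called (1.82%), 3 higher and 2 lower, beside 3.96% (1.82% higher and 2.14% lower). With the replicate number as a random block the last count was 3. In the juvenile leaf 43 members were called in A619 (15.6%), 18 higher and 25 lower, beside 41.9% (23.9% higher and 18.0% lower). In ND101/W23 14 were called there (5.09%), 6 higher and 8 lower, beside 10.3% (5.85% higher and 4.41% lower). The balance of the A619 leaf calls turned without replicate 3, where 23 of 39 were higher and 16 lower. With a dye term it stayed on the lower side, with 20 higher and 59 lower. The mean ratio was past 2-fold for 2 members of A619 (0.727%) and 16 of ND101/W23 (5.82%) in 1 mm anthers, beside 3.89% and 4.97% of all probes. In 1.5 mm anthers it was past 2-fold for 10 (3.64%) and 0, beside 8.99% and 3.97%. Mean leaf ratios were past 2-fold for 45 members in A619 (16.4%) and for 10 in ND101/W23 (3.64%), beside 21.3% and 5.54% of all probes. Single arrays carried some of these counts: 73 members lay past 2-fold on replicate 2 of the ND101/W23 1 mm anthers, against 2 and 8 on replicates 1 and 3, and 89 on replicate 3 of the A619 leaf, against 16 and 26 on replicates 1 and 2. In the ND101/W23 leaf the numbers were 66 on replicate 3 against 8 and 9.

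Leaving out 1 replicate changed these counts. In 1 mm anthers the A619 count was 0 without any of the 3 replicates, and the ND101/W23 count was 0 without replicate 2 or 3 and 1 without replicate 1. In 1.5 mm anthers A619 had 7 calls without replicate 1 and 3 without replicate 3, and ND101/W23 had 0 without either and 8 without replicate 2. In the leaf A619 had 19 calls without replicate 1 and 28 without replicate 2, and ND101/W23 had 0 without either and 6 without replicate 3. Over all tissues 71 of the 275 members with a value were called in at least 1 line against W23. Of these, 10 were called in pollen and 61 elsewhere, with 0 in both. Over all probes 58.2% were called in at least 1 line and tissue, 2.15% in pollen, 57.6% elsewhere and 1.54% in both.

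On single arrays the members moved together. Replicate 3 of the leaf differed from replicates 1 and 2 in its W23 sample, which both lines share, and also in its dyes, with the line in Cy3 by the labels and in Cy5 on the other leaf arrays, so that these cannot be told apart. On that replicate the median of the members was -0.40 in A619 and -0.36 in ND101/W23, against -0.08 and -0.02 on the other A619 leaf arrays and -0.07 and 0.00 on the other ND101/W23 ones. There 83 of 275 members (30.2%) lay below -1 in A619 and 63 of 274 (23%) in ND101/W23, beside 9.29% and 3.28% of all probes. The 55 other pollen-specific probes were also low there, with medians of -0.81 and -0.53, while the study's leaf-specific probes had medians of -0.17 and -0.12, within or near those of the other leaf arrays (-0.22 to -0.09). On ND101/W23 1 mm anther replicate 2 the members were high, with a median of 0.41 and 73 of 275 (26.5%) above 1, beside 5.0% of all probes, and the other pollen-specific probes had a median of 0.60. The other ND101/W23 arrays of that tissue had medians of 0.10 and 0.02. The A619 array of that number and tissue shares the W23 sample in the study's design and the dye by the labels. On it the members had a median of 0.06, with 1.455% above 1. Whether pollen RNA had a part in these shifts was not tested.

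The members that moved most on those arrays were partly the same. TC259553, similar to a pea ribonuclease, read -4.13 in A619 and -2.87 in ND101/W23 on leaf replicate 3 and lay between -0.27 and 0.13 on the other leaf arrays. It was also the highest on ND101/W23 1 mm anther replicate 2, at 4.44, where the other arrays gave -0.07 and 0.08. TC251458, a match to a glycine-rich mycobacterial family, read -3.46 and -2.94 on leaf replicate 3 and 4.10 on the 1 mm anther array. The subtilisin-like protease TC261525 read -3.84 in A619 and -2.38 in ND101/W23 on leaf replicate 3, TC248207 read -3.26 and -2.74, and TC261521 read -3.49 and -2.40. The proteinase inhibitor TC270969 reached 4.23 on the 1 mm anther array, the pollen clone 3A6 (TC270264) 4.03 and TC260057 4.01. In mature pollen the subtilisin-like TC261525 read -0.11, 0.26 and -0.03 in A619 against -0.15, 0.54 and 0.17 in ND101/W23, close to W23.

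**Figure D4:**
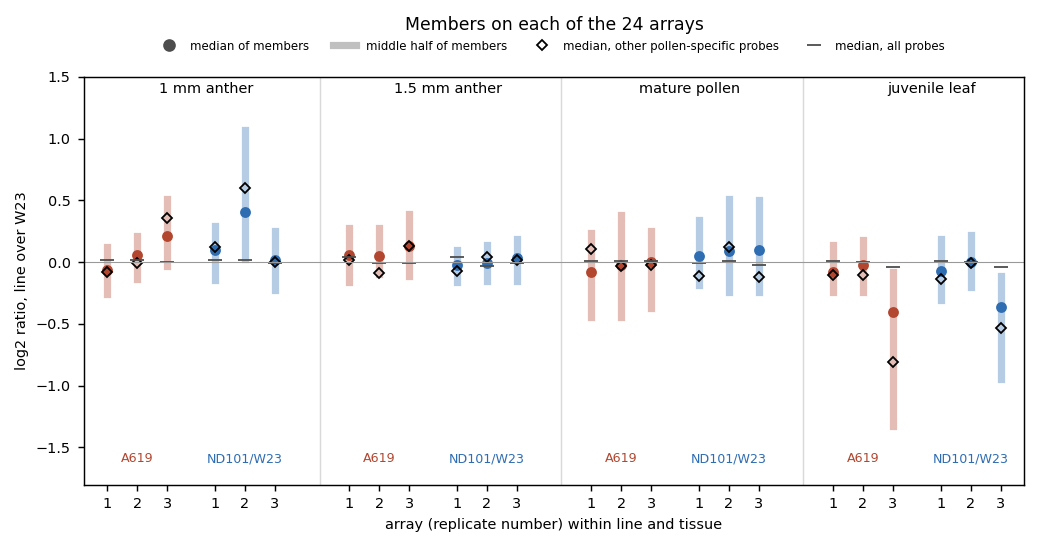
Median log2 ratio of the line over W23 (vertical axis) of the members on each of the 24 arrays (points, with bars from the first to the third quartile), with the median of the other pollen-specific probes (diamonds) and of all probes (dashes). Both arrays of leaf replicate 3 fall to -0.40 and -0.36, and ND101/W23 1 mm anther replicate 2 stands at 0.41.

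A few members kept 1 direction in A619 in all 3 tissues outside pollen. TC279186, whose product name is a partial match of 5% to a capsid protein, read 1.56, 2.15 and 2.43 in 1 mm anthers of A619 and -0.11, 0.49 and -0.65 in those of ND101/W23. In 1.5 mm anthers it read 3.58, 4.46 and 4.48 in A619 against 0.13, 0.28 and -0.34 in ND101/W23, and in the leaf 2.65, 4.01 and 3.88 against -0.70, 0.07 and -0.06. No array of A619 overlapped one of ND101/W23 in these tissues. The A619 means were 2.05 (SE 0.24, adjusted p = 0.00576, limma), 4.17 (SE 0.21, adjusted p = 0.000204) and 3.51 (SE 0.28, adjusted p = 0.000215). The differences between the lines of 2.14, 4.15 and 3.74 were called, with adjusted p of 0.0437, 0.00218 and 0.00231. In pollen the same probe was below 0 on all arrays of both lines, as given above.

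A transcript similar to the hypothetical rice protein OJ1489_G03.9 read 1.23, 0.96 and 1.08 in 1 mm anthers of A619 and -0.16, -0.07 and -0.64 in those of ND101/W23. In 1.5 mm anthers the A619 ratios were 2.01, 1.59 and 2.20, and those of ND101/W23 were -0.12, -0.01 and -0.19. The lines were fully apart in both stages. The A619 means of 1.09 (SE 0.15, adjusted p = 0.0100, limma) and 1.93 (SE 0.14, adjusted p = 0.000631) were called, as were the differences of 1.38 (adjusted p = 0.0413) and 2.04 (adjusted p = 0.00501). In the leaf the A619 mean was 0.44 (adjusted p = 0.0463, and 0.0827 with the replicate number as a block, which ends the call), and in pollen the A619 ratios were 0.22, 0.28 and 0.31.

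TC272110, similar to bystin, which is known in yeast and animals for its part in making the small ribosomal subunit, was called in the same 3 tissues of A619. It read 0.93, 0.86 and 0.59 in 1 mm anthers (mean 0.79, adjusted p = 0.0212, limma) and 0.90, 0.94 and 0.64 in 1.5 mm anthers (mean 0.83, adjusted p = 0.0171) of A619, where ND101/W23 gave 0.71, 0.44 and 0.33 and then 0.76, 0.25 and 1.05. The anther arrays of both lines were all above 0 and overlapped at each stage. In the leaf the A619 ratios were 2.46, 3.58 and 2.98 (mean 3.01, SE 0.21, adjusted p = 0.000146) and those of ND101/W23 were 0.64, 0.35 and 0.25, a difference of 2.59 (adjusted p = 0.00260). In pollen TC272110 read -0.43, -0.26 and 0.33 in A619 against 0.41, -0.30 and -0.04 in ND101/W23.

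Of the 15 proteins of transcription, chromatin and RNA 4 were called in 1.5 mm anthers of A619, beside 20.3% of all probes (8.65% higher and 11.6% lower), and the group's median was 0.40, beside 0.10 over all members and 0.02 over all probes. The 4 called ones were higher, and beside TC272110 they were the DNA methyltransferase-like TC263214 (0.66, 0.49 and 0.64, adjusted p = 0.0186, limma), a transcript similar to the rice DNA-binding protein GBP16 (0.51, 0.72 and 0.90, adjusted p = 0.0148), and the transcription factor-like CD651195.1 (0.39, 0.30 and 0.51, adjusted p = 0.0355). In the leaf of A619 CD651195.1 was lower, at -0.46, -0.35 and -0.43 (adjusted p = 0.0200). TC260250, similar to the nitrate-induced NOI protein, was also higher in 1.5 mm anthers of A619, at 0.92, 1.76 and 0.57 (mean 1.08, adjusted p = 0.0170), against -0.26, -0.09 and -0.34 in ND101/W23. The difference of 1.31 had an adjusted p of 0.0683.

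The members lower in 1.5 mm anthers were led by TC255726 and TC266167. TC255726, similar to a glycerol-3-phosphate permease, read -2.24, -1.71 and -1.0 in A619 (mean -1.65, adjusted p = 0.0105, limma) and -1.23, -1.28 and -0.24 in ND101/W23 (mean -0.92, adjusted p = 0.162). TC266167, a family 35 glycosyl hydrolase similar to beta-galactosidases, which trim galactose from wall polymers, read -1.45, -1.38 and -1.65 in A619 (mean -1.49, SE 0.14, adjusted p = 0.00148) and -0.47, -1.07 and -0.62 in ND101/W23 (mean -0.72, adjusted p = 0.0471, and 0.0683 with the replicate number as a block, which ends the ND101/W23 call). Both transcripts were below 0 on all 6 arrays of this stage, and the lines overlapped for TC255726 and not for TC266167. In pollen TC266167 read 0.33, -0.01 and 0.20 in A619 against 0.52, 0.61 and 0.07 in ND101/W23. AW424708 was lower in A619, at -1.11, -0.91 and -0.72 (mean -0.91, adjusted p = 0.0193).

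Other members were called in 1.5 mm anthers of ND101/W23. The beta-expansin TC259383 read 0.67, 0.87 and 1.20 (mean 0.91, adjusted p = 0.0186, limma), against 0.14, -0.02 and 0.25 in A619. BE129975.1, similar to a beta-1,3-glycosyltransferase, read 0.45, 0.77 and 0.91 in A619 (mean 0.71, adjusted p = 0.0322) and 0.59, 1.32 and 0.67 in ND101/W23 (mean 0.86, adjusted p = 0.0497, and 0.0565 with the replicate number as a block, which ends the ND101/W23 call). The ND101/W23 calls of TC266167 and BE129975.1 held in 2 of 10 alternatives each. A transcript similar to the hypothetical rice protein OJ1435_F07.29 was lower, at -0.77, -0.82 and -0.70 (mean -0.76, adjusted p = 0.0352). In the leaf the reverse probe of TC259383 read higher in both lines. Its ratios were 1.53, 1.48 and 0.82 in A619 (mean 1.28, adjusted p = 0.00292, limma). In ND101/W23 they were 1.49, 1.28 and 0.65 (mean 1.14, adjusted p = 0.0227). Its leaf ratios overlapped between the lines, with replicate 3 the lowest in each.

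The largest ratios of the leaf lay in A619. BQ485995, similar to a hypothetical Arabidopsis protein, read 2.84, 3.51 and 2.25 in A619 (mean 2.87, SE 0.22, adjusted p = 0.000195, limma) and -0.25, -0.22 and -0.16 in ND101/W23, a difference of 3.08 (adjusted p = 0.00202). CF634733, similar to a sodium-dicarboxylate cotransporter and with a probe in reverse orientation, read -3.85, -4.64 and -2.36 in A619 (mean -3.62, SE 0.45, adjusted p = 0.000920) and -2.23, -2.74 and -1.18 in ND101/W23 (mean -2.05, adjusted p = 0.0355). Both lines were below W23 on every array for CF634733. The difference of -1.57 had an adjusted p of 0.133 in the fit that does not pair same-numbered arrays. TC264386, similar to a nucleotide sugar epimerase, a kind of enzyme that interconverts the sugars used for wall polymers, read -3.06, -3.62 and -2.37 in A619 (mean -3.02, SE 0.24, adjusted p = 0.000206) and -1.09, -1.56 and -0.96 in ND101/W23 (mean -1.20, adjusted p = 0.0282). Here the lines did not overlap, and the difference of -1.81 was called (adjusted p = 0.0117).

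In the leaf 2 lipid enzymes differed between the lines in sign. TC269777, a sterol glucosyltransferase-like transcript, read -3.10, -3.79 and -0.56 in A619 (mean -2.48, SE 0.54, adjusted p = 0.00984, limma) and 0.40, 0.56 and 0.81 in ND101/W23, a difference of -3.07 (adjusted p = 0.0314). TC273756, similar to a lysophospholipase, which removes the remaining fatty acid of a lysophospholipid, read -0.63, -1.52 and -2.82 in A619 (mean -1.66, adjusted p = 0.0244) and 2.18, 2.71 and 0.94 in ND101/W23 (mean 1.94, adjusted p = 0.0425). All A619 arrays were below 0 and all ND101/W23 arrays above it for each of these enzymes, and the difference for TC273756 was -3.60 (adjusted p = 0.0101). TC272805, similar to a syringomycin biosynthesis enzyme, had the same form, with -0.62, -0.73 and -1.32 in A619 (mean -0.89, adjusted p = 0.0849) and 3.09, 3.73 and 1.71 in ND101/W23 (mean 2.84, SE 0.36, adjusted p = 0.0110), and the difference was -3.73 (adjusted p = 0.00421). TC272805 also had single outlying arrays elsewhere, 8.55 on A619 1.5 mm anther replicate 1 beside -0.02 and 0.19, and -3.94 on A619 pollen replicate 2 beside 0.16 and 0.15.

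Of the 17 wall proteins 3 were called in the leaf of A619, each higher, beside 23.9% of all probes called higher there. Beside TC259383 they were the group 3 allergen TC259975, at 0.79, 1.30 and 0.42 in A619 (mean 0.84, adjusted p = 0.0135, limma) and -0.08, 0.06 and -0.55 in ND101/W23, and the gp1-like TC260710, at 1.48, 2.63 and 0.48 in A619 (mean 1.53, adjusted p = 0.0206). The difference between the lines for TC259975 was 1.03 (adjusted p = 0.0417). Of the 85 unnamed transcripts with a value, 5 were called higher and 11 lower in that comparison, beside 23.9% and 18.0% of all probes. Of the proteins named for pollen, TC273113, similar to the pollen protein SF21, was lower in A619 leaf, at -0.57, -1.32 and -1.81 (mean -1.23, adjusted p = 0.0121), against 0.76, 1.45 and 0.30 in ND101/W23. TC267347, similar to the Arabidopsis protein F6F9.1, was lower in ND101/W23 leaf, at -0.82, -0.59 and -0.79 (mean -0.73, adjusted p = 0.0314).

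Set directly against each other, A619 and ND101/W23 differed for 23 of the 275 members with a value in at least 1 tissue. Of all probes 23.8% did so. In pollen 0 members and 0 of all 7900 probes were called by limma, while Rank Products and the fit of all 24 arrays each called 12 members there. The shares of all probes under those alternatives were not counted. In 1 mm anthers 2 members were called (0.727%), both higher in A619, beside 0.734% of all probes (0.456% higher). In 1.5 mm anthers 5 were called (1.82%), all higher in A619, beside 3.82% (2.08% higher and 1.75% lower). In the leaf 19 were called (6.91%), 9 higher and 10 lower in A619, beside 21.0% (11.8% higher and 9.16% lower). These shares again do not compare like with like, since the members were listed as not detected in anthers and leaf. With the replicate number as a fixed block, which pairs the same-numbered arrays, the counts in 1.5 mm anthers and the leaf were 9 and 35. Leaving out replicate 1, 2 or 3 gave 0 calls in 1 mm anthers each time, 0, 7 and 0 in 1.5 mm anthers, and 1, 6 and 19 in the leaf.

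**Figure D5:**
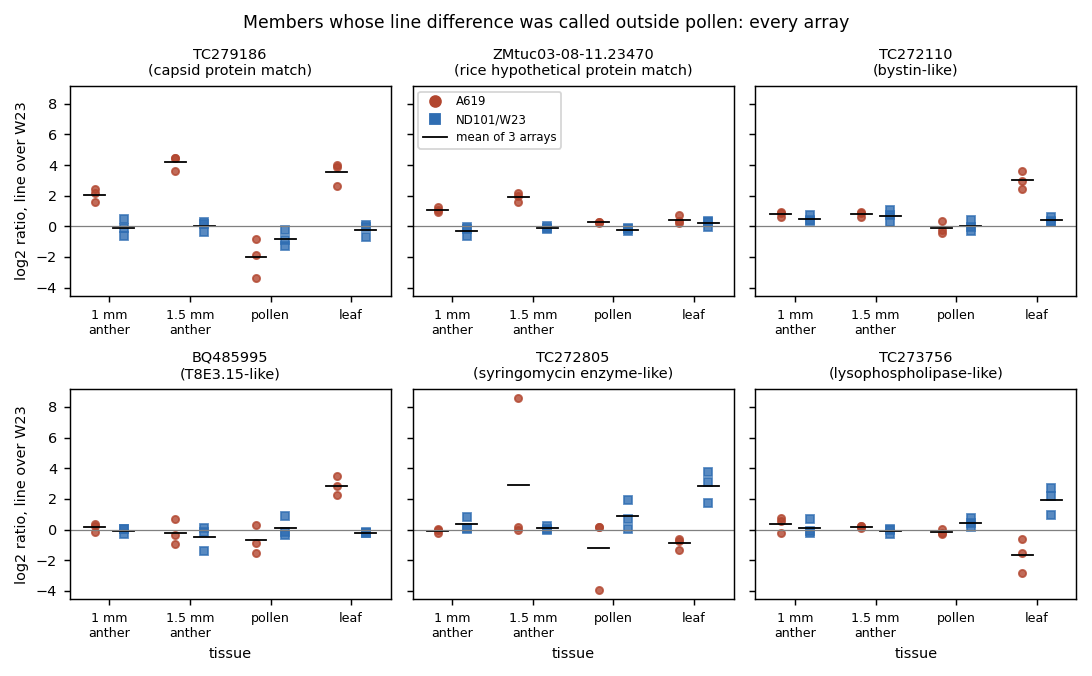
Log2 ratio of the line over W23 (vertical axis) of 6 members whose difference between A619 and ND101/W23 was called outside pollen, by tissue (horizontal axis), with 1 point for each array and a bar at the mean of 3 arrays. TC279186 stands above 0 in A619 in both anther stages and the leaf and below 0 in pollen, and TC272805 has 1 A619 array at 8.55 in 1.5 mm anthers.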

How the data were processed

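The deposited table held log2 ratios of 24 arrays of 2 colours, extracted by the authors with Agilent Feature Extraction, filtered against negative controls, normalized by loess on rank-invariant probes and brought to 1 scale among triplicates. Of 21939 probes 7884 to 7900 had a value on an array (7817 on all 24), and array medians lay between -0.04 and 0.04. Signal depth was not analysed here, and 3 arrays a comparison limit the precision. The study's probe numbers were joined to the table at an offset of 3, at which 22 of 23 known transcript accessions matched. The direction, line over W23, was set by the study's own ND101/W23 ratios (same sign for 73 of 74 values by tissue, from 23 probes), since the labels and the study's design drawing give opposite dyes. That of A619 rests on the pairing: deviations from the comparison mean correlated at 0.198 to 0.645 for the 12 pairs of arrays of both lines that share a number and, in the study's design, a W23 sample, and at -0.571 to 0.227 for the 24 other pairs.

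The 6 arrays of a tissue entered 1 fit that gave a mean per line (limma 3.58.1, R 4.3.3), with Benjamini-Hochberg adjustment over all probes. A probe was called at an adjusted p under 0.05 with 3 ratios of 1 sign. For A619 minus ND101/W23 the 3 same-numbered differences had to be of 1 sign, while the fit itself did not pair the arrays. The members and lists were chosen with earlier results of these data known. Named were the called pollen members, the 5 highest and 5 lowest named ones in pollen of each line, the 3 highest and 3 lowest called ones of each other comparison, the 5 that moved most on leaf replicate 3 and ND101/W23 1 mm anther replicate 2, and families sharing a product name. Other examples were chosen after their values were seen, and transcripts with long assembly identifiers are called by product name. Alternatives were array centring, probes on all arrays, the 3 arrays of a line, all 24 arrays in 1 fit, a dye term, the replicate block, Rank Products (100 permutations), no sign rule, leaving out a replicate, and subsets of the members. The scripts were tested on simulated data. Python 3.11.15, numpy 2.4.6, pandas 2.3.3, scipy 1.17.1, matplotlib 3.10.9 and statmod 1.5.0 were also used.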

Additional observations from a re-analysis of the deposited data

Results flagged for a closer look

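Tested differences of A619 minus ND101/W23 (limma, adjusted p under 0.05) were found for single members outside pollen. For the OJ1489_G03.9-like transcript the difference was 1.38 at the 1 mm and 2.04 at the 1.5 mm anther stage, and for TC279186 it was 2.14 and 4.15 there and 3.74 in the leaf. In the leaf the differences were 3.08 for BQ485995, 2.59 for TC272110, 1.03 for TC259975, -1.81 for TC264386, -3.07 for TC269777, -3.60 for TC273756 and -3.73 for TC272805.

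Some members had all 3 pollen arrays on 1 side of 0 and all 3 arrays of another tissue on the other side, in the same line. The differences between tissues were not tested. TC279186 in A619 averaged -2.02 in pollen and 2.05, 4.17 and 3.51 in 1 mm anthers, 1.5 mm anthers and the leaf. TC268360 in A619 averaged 1.62 in pollen and -0.15, -0.15 and -0.34 in those tissues. Also in A619, TC274815 averaged 3.04 in pollen and -0.30 in the leaf, TC261524 averaged -1.75 in pollen and 0.20 in 1.5 mm anthers, and TC259975 averaged -1.66 in pollen and 0.84 in the leaf. In ND101/W23, TC266167 averaged 0.40 in pollen and -0.72 in 1.5 mm anthers, and TC267347 averaged 0.12 in pollen and -0.73 in the leaf.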

How the results depend on the processing

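Counts of called members stayed within 1.5 times the values above when each array was centred on its median, when only probes with a value on all 24 arrays were used and when no sign rule was applied. The order below is A619 against W23, ND101/W23 against W23 and A619 minus ND101/W23, wherever the count moved further. With only the 3 arrays of a line there were 0 calls in ND101/W23 at either anther stage, 28 in A619 leaf and 1 in A619 pollen. With all 24 arrays in 1 fit there were 6 in ND101/W23 1 mm anthers and, in pollen, 23, 25 and 12. A dye term gave 5 (ND101/W23) and 1 (A619 minus ND101/W23) at the 1 mm stage, 3 in ND101/W23 at the 1.5 mm stage, 79, 42 and 29 in the leaf and 3 in A619 pollen. With the replicate block there were 3 calls in ND101/W23 1.5 mm anthers and for A619 minus ND101/W23 9 at that stage and 35 in the leaf, and the block moved no other count by more than 1.5 times and ended 6 calls, of which 4 are given above and the others were of unnamed transcripts in A619 1.5 mm anthers. Rank Products gave 0 (ND101/W23) and 1 (A619 minus ND101/W23) at the 1 mm stage, 4, 0 and 2 at the 1.5 mm stage, 5, 3 and 6 in the leaf, and 13 (ND101/W23) and 12 (A619 minus ND101/W23) in pollen. The causes were not tested, and the shares of all probes under the alternatives were not counted. Of the pollen calls in A619, that of TC255219 held in 7 of 10 alternatives, TC274815 in 6 of 9, AW928278, TC261524 and TC268360 in 6 of 10 each, TC266366 in 5 of 10, TC272629 in 4 of 10 and TC260978 in 2 of 9. Those in ND101/W23 held in 8 of 10 for TC268098 and in 5 of 10 for TC264374 and TC272629, while TC279186 in A619 was called under all 10 alternatives in 1.5 mm anthers and the leaf and under 7 of 10 in 1 mm anthers.

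Leaving out 1 replicate left 2 arrays a line. The counts then ranged, at the 1 mm stage, from 0 to 0 in A619, from 0 to 1 in ND101/W23 and from 0 to 0 for A619 minus ND101/W23. At the 1.5 mm stage they ranged from 3 to 23, from 0 to 8 and from 0 to 7, in the leaf from 19 to 39, from 0 to 6 and from 1 to 19, and in pollen from 0 to 10, from 0 to 6 and from 0 to 0. The members' medians ranged from 0.02 to 0.13 in A619 and 0.07 to 0.29 in ND101/W23 at the 1 mm stage, from 0.07 to 0.12 and -0.01 to 0.02 at the 1.5 mm stage, from -0.25 to -0.04 and -0.26 to -0.02 in the leaf, and from -0.07 to -0.03 and 0.06 to 0.09 in pollen. With forward probes without mismatch alone, the ND101/W23 pollen median was 0.125, against 0.08 over all members.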
